A study of Homo sapiens with 4 samples.

Results

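The AP-1 subunits and a few other immediate early factors were followed in U87MG cells, an established human glioblastoma line, after treatment with chaetocin. The set holds the 10 genes *FOS*, *FOSB*, *FOSL1*, *FOSL2*, *JUN*, *JUNB*, *JUND*, *ATF3*, *EGR1* and *IER3*, taken by name among the 57905 genes of the count tables. All 10 were found by their Ensembl identifiers, and all 10 passed the filter on low counts that left 16416 genes for testing. RNA was sequenced from 2 untreated control samples and 2 samples that received 50 nM chaetocin for 24 h. Chaetocin is a fungal metabolite that inhibits histone methyltransferases and raises reactive oxygen species. All samples were wild type U87MG cells at passages 8-10, grown as attached cultures in serum. The drug was dissolved in DMSO while the control cells were untreated, so drug and solvent cannot be told apart. The sources give no separate cultures for the samples of a group, and p-values then measure only the spread between these samples, which may be technical.

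AP-1 is a dimer of leucine zipper proteins. A FOS protein needs a JUN partner, whereas JUN proteins also pair among themselves or with ATF proteins, and the dimers bind short palindromes in promoters and enhancers. Many of these genes are immediate early genes, which serum, growth factors or stress switch on within minutes through MAP kinases, the serum response factor SRF and its ternary complex partners, without new protein synthesis. *JUND* is usually the steadily expressed subunit, *FOSL1* and *JUN* are linked to invasive and mesenchymal tumour states, *ATF3* is induced by many kinds of cell stress, *EGR1* is a zinc finger factor of the serum response, and *IER3* is a short-lived survival protein of the same response.

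*JUND* doubled with chaetocin and was the one member that passed the test. *ATF3* was also higher in both treated samples and fell just short of the threshold, and *JUN* was lower in both treated samples without passing it. *FOS*, *FOSB* and *EGR1* differed more between the samples of a group than between the groups. *JUNB* lay at nearly the same level in the 4 samples, and *FOSL1*, *FOSL2* and *IER3* did not pass. To show what lies in front of the genes these results turn on, the 250 bases before the RefSeq start are printed for *JUND*, *JUN* and *ATF3*, and for *EGR1* as the member with the widest interval. The windows are on GRCh38.p14, in the direction of transcription, whereas the count tables were made on GRCh37. Capitals mark the motif matches described below.

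JUND (chr19:18281623-18281872, - strand): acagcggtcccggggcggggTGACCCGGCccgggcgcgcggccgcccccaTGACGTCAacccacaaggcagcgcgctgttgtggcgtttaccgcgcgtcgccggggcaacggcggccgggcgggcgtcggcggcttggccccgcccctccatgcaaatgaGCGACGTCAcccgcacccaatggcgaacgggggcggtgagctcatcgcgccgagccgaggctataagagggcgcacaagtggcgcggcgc
JUN (chr1:58784048-58784297, - strand): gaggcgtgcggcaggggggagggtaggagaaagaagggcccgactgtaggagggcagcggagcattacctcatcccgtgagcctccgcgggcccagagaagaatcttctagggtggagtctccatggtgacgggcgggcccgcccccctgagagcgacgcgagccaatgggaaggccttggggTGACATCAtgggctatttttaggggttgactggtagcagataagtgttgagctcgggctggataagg
ATF3 (chr1:212565157-212565406, + strand): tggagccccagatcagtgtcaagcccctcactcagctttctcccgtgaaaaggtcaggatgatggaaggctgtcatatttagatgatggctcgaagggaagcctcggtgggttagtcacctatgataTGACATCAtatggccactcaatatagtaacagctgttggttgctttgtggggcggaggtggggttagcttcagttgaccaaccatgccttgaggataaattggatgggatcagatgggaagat
EGR1 (chr5:138465229-138465478, + strand): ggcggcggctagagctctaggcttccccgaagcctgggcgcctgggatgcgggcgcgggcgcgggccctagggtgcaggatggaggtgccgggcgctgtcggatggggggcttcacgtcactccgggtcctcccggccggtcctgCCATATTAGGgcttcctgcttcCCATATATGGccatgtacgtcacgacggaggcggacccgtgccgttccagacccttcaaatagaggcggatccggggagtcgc

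RefSeq windows were matched for 8 of the 10 members, 9 windows in all because 2 were listed for *ATF3*. Any other starts of these genes were not searched. Both strands were searched, and matches of different motifs may overlap. The *JUND* window holds the cAMP response element TGACGTCA, bound by ATF, CREB and some AP-1 dimers, 200 bases upstream, and it was the only member window with this motif, which 1.65% of all 35116 windows of the same length hold. It also holds the core of the antioxidant response element, TGACNNNGC, at 230 and 90 bases upstream, a motif found in 10.9% of all windows. The variant TGACATCA, held by 2.37% of all windows, lies 67 bases upstream in *JUN* and 123 bases upstream in the *ATF3* window shown. *EGR1* holds 2 CArG boxes, the SRF site, at 105 and 83 bases upstream. A CArG box is in 1.16% of all windows and in no other member window. The AP-1 site was searched loosely as TGANTCA, with N for any base, and was present in 6.57% of all windows. This motif and the EGR site GCGTGGGCG, present in 0.72%, were in none of the 9. A TATAAA box, in 10.7% of all windows, was found in *FOS*, *FOSB*, *JUNB* and the other *ATF3* window. A match describes these letters only.

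Library totals ranged from 21241984 to 32590479 counts, and the members had between 72 and 11035 counts per sample. Levels are given in CPM, counts scaled to library size after TMM normalization, and differences as log2 fold changes of chaetocin against control from edgeR's quasi-likelihood test, with Benjamini-Hochberg adjustment over all genes tested. Of the glioma markers, *VIM* lay between 1148 and 2797 CPM and *CD44* between 797 and 2653 CPM in the 4 samples, while *SOX2* and *S100B* had 0 counts in both controls and *GFAP* at most 1.02 CPM. All 7 tested glioma markers had a log2 fold change below 0, and *CHI3L1* was called lower (-1.28). Of 16 leukocyte markers, 6 had no count in any sample, and the summed level, mostly *CD74*, was 239 and 180 CPM in the controls and 192 and 121 CPM with chaetocin. *PTPRC* (0 and 1 counts in the controls, 15 and 27 with chaetocin) and *ITGAM* (0 and 1, 24 and 29) were called higher. Their part in the results below was not tested. Median absolute differences between the samples of a group were 0.17 on the log2 scale for controls and 0.28 for chaetocin over all genes tested. Of the 16416 genes, 182 (1.11%) were called higher and 122 (0.743%) lower at an adjusted p under 0.05, with a split of 246 higher and 88 lower under upper-quartile scaling, which moved the median log2 fold change of all genes from 0.008 to 0.08. Among the 10 members, edgeR called 1 higher and 0 lower, and DESeq2 called 2 higher and 0 lower against 2.35% and 2.93% of all genes. At an unadjusted p under 0.05, 2 members were higher and 1 was lower, against 10.9% and 9.43% of all genes. Both chaetocin samples lay above both controls for 2 members and below both for 2, against 26.8% and 26% of all genes. The median log2 fold change was 0.03 over the members and 0.008 over all genes tested.

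**Figure D1:**
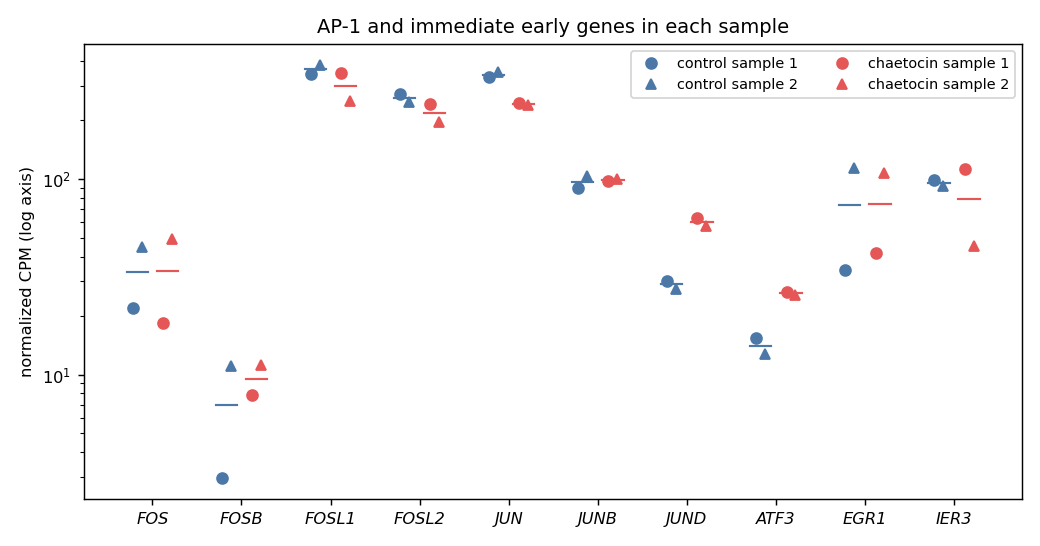
Normalized CPM of each member gene (log axis) in the 2 control samples (blue) and the 2 chaetocin samples (red), with circles for sample 1, triangles for sample 2 and short lines for group means. The groups stand apart for *JUND*, *ATF3*, *JUN* and *FOSL2*, and *FOS*, *FOSB* and *EGR1* spread widely within the control group.

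Of the JUN family, *JUND* (ENSG00000130522, chromosome 19) encodes the subunit that often opposes the growth-promoting action of JUN. Its level was 30.2 and 27.5 CPM in the control samples and 63.1 and 57.7 CPM with chaetocin. Both treated samples were about double either control, and the samples of a group lay close together. The means were 28.9 ± 1.92 CPM (SD, n = 2) and 60.4 ± 3.83 CPM (SD, n = 2). *JUND* rose 2.09-fold, a log2 fold change of 1.06 (standard error 0.15, 95% interval 0.72 to 1.41, adjusted p = 0.0279, edgeR). By p-value *JUND* ranked 52 among the 16416 genes, and by log2 fold change 1067. Its longest transcript is 69.7% G and C, the highest among the members, and with a correction of each library for GC content the log2 fold change was 0.92 (adjusted p = 0.0312, edgeR).

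*JUN* (ENSG00000177606, chromosome 1), the founding subunit and a driver of proliferation, was at 333 and 351 CPM in the controls and at 245 and 238 CPM with chaetocin. Both treated samples were lower than both controls, and the gap between the groups was wider than that within either. The means were 342 ± 12.5 CPM (SD, n = 2) and 241 ± 5.17 CPM (SD, n = 2). With a log2 fold change of -0.50 (standard error 0.15, 95% interval -0.85 to -0.15, adjusted p = 0.122, edgeR), *JUN* was not called. The log2 fold change was -0.52 and -0.49 without chaetocin samples 1 and 2, and -0.55 and -0.47 without control samples 1 and 2. A fit that blocks on the sample number is given in the closing section. *JUNB* (ENSG00000171223, chromosome 19), a weaker activator that can restrain JUN, had 89.5 and 103 CPM in the controls and 97.6 and 101 CPM with chaetocin. The treated samples lay within the range of the controls, and the log2 fold change of 0.04 had a 95% interval of -0.29 to 0.37. Its sign turned without control sample 1 (-0.07) and with the GC correction (-0.05). Exons of *JUNB* share 259 bases with *HOOK2* on the opposite strand, and without stated strand counting reads of the pair cannot be told apart there. *HOOK2* lay between 16.3 and 23.3 CPM.

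The make-up of the pooled JUN family transcripts differed between the groups. Per kb of exon, counted on the GENCODE v29 gene models, *JUN* made up 59.0% and 58.1% of the JUN family in the controls and 44.2% and 43.8% with chaetocin. The share of *JUND* was 10.2% and 8.67% in the controls and 21.6% and 20.2% with chaetocin, while *JUNB* held between 30.8% and 36.0% in all samples. The summed level of the family was 159 and 171 CPM per kb in the controls and 157 and 153 CPM per kb with chaetocin. The sums with chaetocin lay just below those of the controls, while the share of *JUND* was about double. These shares are a description, since the levels of the 3 genes were tested above.

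**Figure D2:**
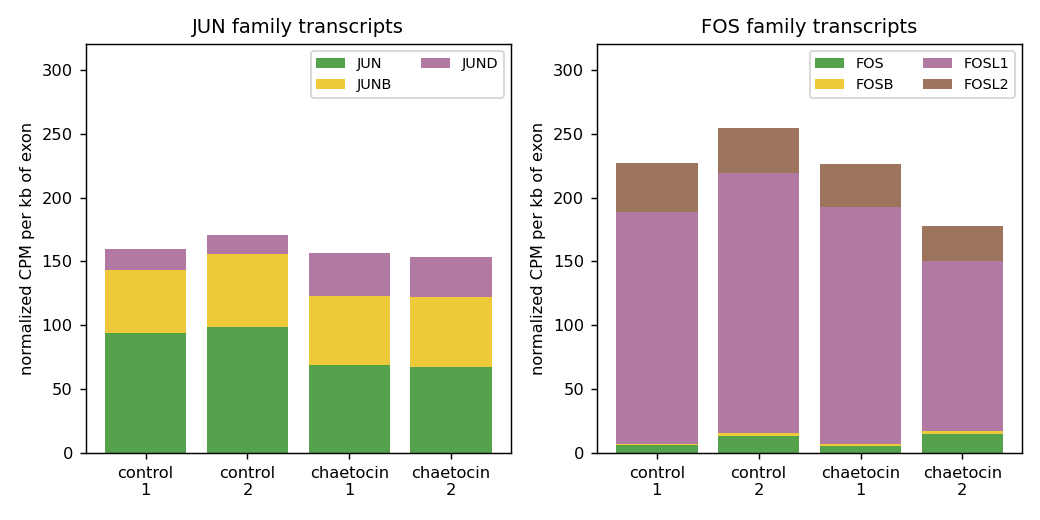
Stacked bars of the normalized CPM per kb of exon of the JUN family (left) and the FOS family (right) in each of the 4 samples, on axes that start at 0. The *JUND* segment is 16.2 and 14.8 CPM per kb in the controls and 33.9 and 31.0 CPM per kb with chaetocin, and *FOSL1* is the tallest FOS segment in every sample.

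Of the FOS family, *FOSL1* (ENSG00000175592, chromosome 11), which encodes FRA-1, was the most abundant member gene per kb in every sample. It had 343 and 384 CPM in the controls and 350 and 251 CPM with chaetocin. One treated sample lay among the controls and the other below them. Its log2 fold change was -0.28 (95% interval -0.73 to 0.18, adjusted p = 0.473, edgeR). The value was -0.53 without chaetocin sample 1 and -0.062 without chaetocin sample 2, so its size rested on chaetocin sample 2. *FOSL2* (ENSG00000075426, chromosome 2), which encodes FRA-2, had 273 and 248 CPM in the controls and 240.5 and 196 CPM with chaetocin. Both treated samples were below both controls by a margin smaller than the gap between the treated samples. For *FOSL2* the log2 fold change was -0.26 (95% interval -0.64 to 0.13, adjusted p = 0.429, edgeR).

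*FOS* (ENSG00000170345, chromosome 14), the classical serum-induced subunit, had 21.8 and 44.7 CPM in the controls and 18.3 and 49.5 CPM with chaetocin. The higher sample was sample 2 in both groups, 2.05 times sample 1 in the controls and 2.70 times with chaetocin. The log2 fold change of 0.03 had a 95% interval of -1.11 to 1.18. *FOSB* (ENSG00000125740, chromosome 19), its close paralogue, was the least abundant member per kb, with 72 and 317 counts in the controls and 171 and 399 with chaetocin, or 2.95 CPM in the low control, 11.03 CPM in the other and 7.86 and 11.2 CPM with chaetocin. Control sample 1 was well below the other 3 samples, which lay closer together. For *FOSB* the log2 fold change was 0.45 (95% interval -0.77 to 1.66, adjusted p = 0.684, edgeR). It was 1.69 without control sample 2 and -0.22 without control sample 1. For *FOS* the value was -0.41 without control sample 1 and -0.87 without chaetocin sample 2. *FOSL1* made up 80.0% and 80.1% of the FOS family per kb in the controls and 82.0% and 74.8% with chaetocin, whereas *FOS* held between 2.50% and 8.60%.

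*ATF3* (ENSG00000162772, chromosome 1), a stress-induced bZIP factor that pairs with JUN proteins and often represses, had 15.4 and 12.7 CPM in the controls and 26.3 and 25.6 CPM with chaetocin. Both treated samples were well above both controls and close to each other. The means were 14.1 ± 1.86 CPM (SD, n = 2) and 26.0 ± 0.51 CPM (SD, n = 2). This was a 1.85-fold difference, or 0.89 on the log2 scale (standard error 0.18, 95% interval 0.48 to 1.29), with an adjusted p of 0.0503 by edgeR, which misses the threshold of 0.05. The alternatives fell on both sides of it. It was called under upper-quartile scaling (adjusted p = 0.0429, edgeR), with the GC correction (0.0482), with no filter on low counts (0.0014) and with DESeq2 (0.00818). It was not called with the size factors of DESeq2 in edgeR (0.052), with at least 10 counts in every sample (0.0562) or in a fit without the robust option (0.051). A fit that blocks on the sample number is given in the closing section. The log2 fold change was 0.87 and 0.90 without chaetocin samples 1 and 2, and 1.01 and 0.75 without control samples 1 and 2.

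*EGR1* (ENSG00000120738, chromosome 5) had 34.3 and 114 CPM in the controls and 42.0 and 107 CPM with chaetocin. Sample 2 was the higher one in both groups, by 3.32 times in the controls and 2.56 times with chaetocin, while the group means were 74.0 ± 56.1 CPM (SD, n = 2) and 74.8 ± 46.3 CPM (SD, n = 2). The log2 fold change of 0.02 had the widest 95% interval of the 10 members, -1.84 to 1.87. Its sign turned without control sample 1 (-0.62) and without chaetocin sample 2 (-0.82). *IER3* (ENSG00000137331, chromosome 6) was steady in the controls, at 98.7 and 91.9 CPM, and was at 113 and 45.3 CPM with chaetocin. One treated sample was above both controls and the other well below both. For *IER3* the log2 fold change was -0.27 (95% interval -1.12 to 0.57, adjusted p = 0.727, edgeR). It was -1.07 without chaetocin sample 1 and 0.24 without chaetocin sample 2, so the direction rested on which treated sample was kept. Exons of *IER3* share 359 bases with the antisense gene *IER3-AS1*, which had 1 count in all 4 samples together.

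**Figure D3:**
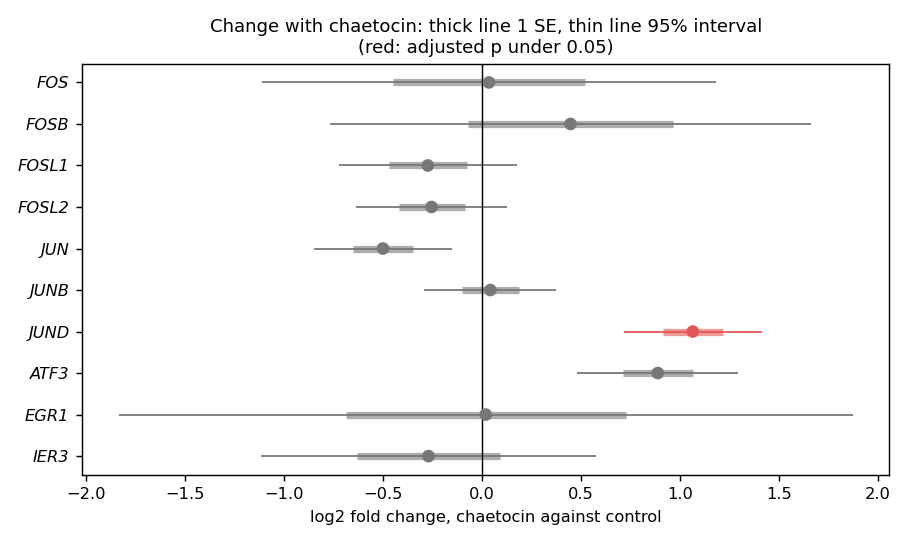
Log2 fold change of chaetocin against control for the 10 members (points), with thick lines for 1 standard error and thin lines for the 95% interval from edgeR's quasi-likelihood fit. *JUND* (red) is the one member called, and the intervals of *EGR1*, *FOSB*, *FOS* and *IER3* are the widest.

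The wide intervals of *FOS* and *EGR1* came with a difference between samples that ran the same way in both groups. Sample 2 was over 1.5 times sample 1 in both groups for these 2 members, and for 337 of all 16416 genes (2.05%). Among 39 other immediate early genes tested it was so for 0. The orphan receptor *NR4A1*, chosen after its values were seen, was at 2.13 and 5.78 CPM in the controls and at 4.41 and 5.69 CPM with chaetocin. What set the samples apart was not tested, and the labels give no batch.

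**Figure D4:**
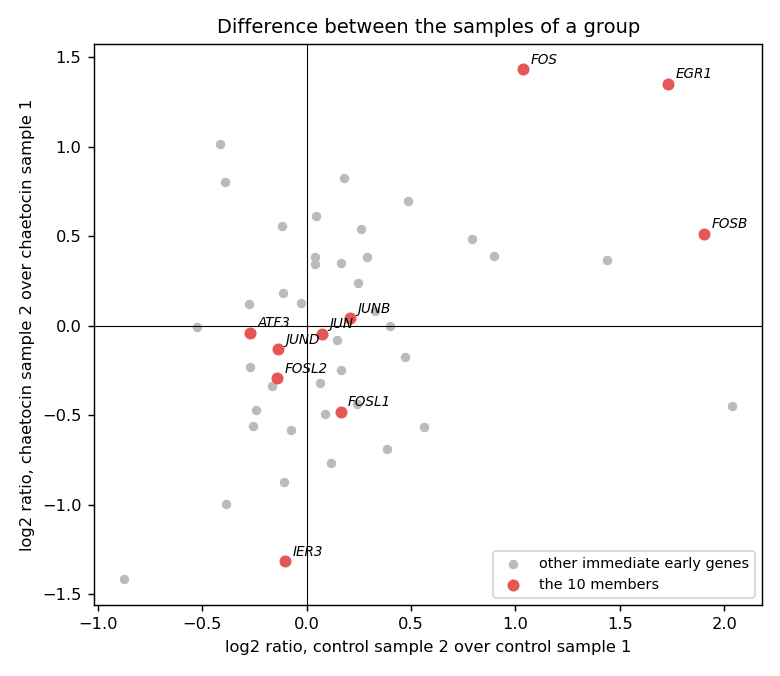
Log2 ratio of sample 2 over sample 1 in the control group (horizontal) and in the chaetocin group (vertical) for the 10 members (red, named) and the other immediate early genes (grey). *FOS* and *EGR1* lie above 1 on both axes, *IER3* lies low on the vertical axis alone, and *JUN*, *JUNB*, *JUND* and *ATF3* lie near the centre.

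Per kb of exon, the order of mean levels in the controls was *FOSL1* (193 CPM per kb), *JUN* (96.6), *IER3* (70.3), *JUNB* (52.9), *FOSL2* (36.4), *EGR1* (23.6), *JUND* (15.5), *FOS* (10.3), *ATF3* (3.48) and *FOSB* (1.26). The control values of *EGR1*, 10.9 and 36.2 CPM per kb, overlapped those of *FOSL2*, *JUND* and *FOS*, and the other neighbours in the order did not overlap. With chaetocin, *JUND* (32.4 CPM per kb) stood beside *FOSL2* (30.5), above *EGR1* (23.8), and the values of *JUND*, *FOSL2* and *EGR1* overlapped. *IER3* (58.3) then overlapped *JUN* (68.2), *JUNB* (54.4), *FOSL2*, *JUND* and *EGR1*. *FOSL1* (159) stayed above all others, and *FOS* (10.5), *ATF3* (6.43) and *FOSB* (1.72) below, where *FOS* overlapped both *ATF3* and *EGR1*.

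Other genes of the pathway were taken from 6 lists, of which 147 of 155 genes were tested. Over all 16416 genes tested, 8059 had a log2 fold change below 0. Of these tested genes, 10.9% were higher and 9.43% lower at an unadjusted p under 0.05 in edgeR. DESeq2 called 2.35% of all genes higher and 2.93% lower. The counts of each list below are to be read against these shares. Counts of calls with a sample left out are to be read against those over all genes, which were largest when a chaetocin sample was left out. Without chaetocin sample 1, 7.55% of all genes were called higher and 9.48% lower by edgeR, and without chaetocin sample 2 4.23% and 5.59%. Without control sample 1 these shares were 1.2% and 0.538%, and without control sample 2 1.24% and 0.868%. Of 23 other bZIP partners tested, edgeR called 1 higher and 0 lower, with 1 higher and 2 lower at an unadjusted p under 0.05 and a median log2 fold change of -0.11. DESeq2 called 1 higher and 1 lower, and edgeR called 1 higher and 8 lower without chaetocin sample 1. The called gene was *MAFG*, a small MAF protein that pairs with NRF2 and other bZIP factors. It rose from 77.1 and 97.4 CPM in the controls to 234 and 253 CPM with chaetocin, with a log2 fold change of 1.48 (adjusted p = 0.0173, edgeR). Of the 39 other immediate early genes tested, 0 were called by edgeR, and the median was 0.03. By unadjusted p under 0.05, 7 were higher and 8 lower, against 10.9% and 9.43% of all genes. DESeq2 called 1 higher and 5 lower, and edgeR called 9 higher and 11 lower without chaetocin sample 1. The largest differences among those with separate groups were those of *EGR3*, an EGR1 paralogue, and *HES1*, a target of Notch signalling. *EGR3* had 0.25 and 1.01 CPM in the controls and 2.11 and 1.55 CPM with chaetocin (2.82-fold, adjusted p = 0.204, edgeR), and *HES1* had 1.02 and 1.25 CPM against 2.76 and 3.60 CPM (log2 fold change 1.48, adjusted p = 0.0655, edgeR).

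MAPK feedback genes, which include the DUSP phosphatases and Sprouty proteins that dampen ERK signalling, mostly lay below 0. Of 22 tested, 19 had a log2 fold change below 0 and the median was -0.35, but 0 were called by edgeR, with 8 lower and 0 higher at an unadjusted p under 0.05, against 9.43% and 10.9% of all genes. DESeq2 called 6 lower and 0 higher, against 2.93% and 2.35%. The treated samples stood apart from each other in this list, with a median absolute difference between samples of 0.54 on the log2 scale with chaetocin and 0.074 in the controls, and 13 of the 22 genes were lower in sample 2 of both groups, as were 4558 of the 16416 genes tested. With edgeR, 12 genes were called lower and 0 higher without chaetocin sample 1, against the 9.48% of all genes called lower in that fit. Without chaetocin sample 2, 6 were lower and 2 higher, and 2 and 1 were lower without control samples 1 and 2. *SPRED3* had 6.35 and 6.47 CPM in the controls and 3.17 and 2.00 CPM with chaetocin (-1.33, adjusted p = 0.0621, edgeR). *DUSP6*, the ERK phosphatase, had 109.8 and 106 CPM against 69.5 and 22.7 CPM (-1.23, adjusted p = 0.192, edgeR), so that the treated samples differed by more from each other than the controls did. *DUSP1*, an immediate early phosphatase of JNK and p38 named here after its values were seen, had 162 and 214 CPM against 109 CPM in both treated samples (-0.78, adjusted p = 0.0586, edgeR).

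Of 29 upstream kinases and SRF-TCF factors tested, edgeR called 0 higher and 1 lower, as did DESeq2, and the median was -0.09. By unadjusted p under 0.05, 3 were higher and 5 lower, against 10.9% and 9.43% of all genes. With edgeR, 5 were called lower and 2 higher without chaetocin sample 1, 2 lower and 1 higher without chaetocin sample 2, and 0 either way without control sample 2. The called gene was *MRTFB*, a coactivator of SRF that senses actin, which fell from 73.2 and 81.5 CPM to 41.1 CPM in both treated samples (-0.91, adjusted p = 0.0306, edgeR). It was not called without control sample 2 (-0.84, adjusted p = 0.0852, edgeR). Among 24 AP-1 target genes tested, edgeR called 1 lower and 0 higher, 17 lay below 0, and the median was -0.50. At an unadjusted p under 0.05, 10 of them were lower and 2 higher, against 9.43% and 10.9% of all genes, and DESeq2 called 6 lower and 0 higher, against 2.93% and 2.35%. The treated samples differed in this list by a median of 0.84 on the log2 scale, against 0.33 between the controls, and sample 2 was lower in both groups for 18 of the 24 genes, as it was for 4558 of the 16416 tested. With edgeR, 16 were called lower and 0 higher without chaetocin sample 1, where 9.48% of all genes were called lower. Without chaetocin sample 2, 5 were lower and 2 higher, without control sample 1, 3 were lower and 2 higher, and without control sample 2, 3 were lower and 0 higher. The called gene was *ITGA2*, a collagen-binding integrin, with 275 and 225 CPM in the controls and 95.6 and 57.5 CPM with chaetocin. The collagenase gene *MMP1*, chosen after its values were seen, was higher in both treated samples, with 11.3 and 9.33 CPM against 40.4 and 14.1 CPM (1.40, adjusted p = 0.138, edgeR). Of 11 EGR1 partners and targets tested, 0 were called by edgeR, and the median was -0.13. By unadjusted p under 0.05, 3 were higher and 3 lower, against 10.9% and 9.43% of all genes. DESeq2 called 2 higher and 2 lower, and edgeR called 3 higher and 3 lower without chaetocin sample 1. *THBS1*, the matrix protein thrombospondin, had 24.2 and 18.7 CPM against 12.4 and 6.92 CPM (-1.16, adjusted p = 0.0776, edgeR), and *FN1*, fibronectin, had 6473 and 4835 CPM against 3496 and 2023 CPM (-1.03, adjusted p = 0.114, edgeR).

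**Figure D5:**
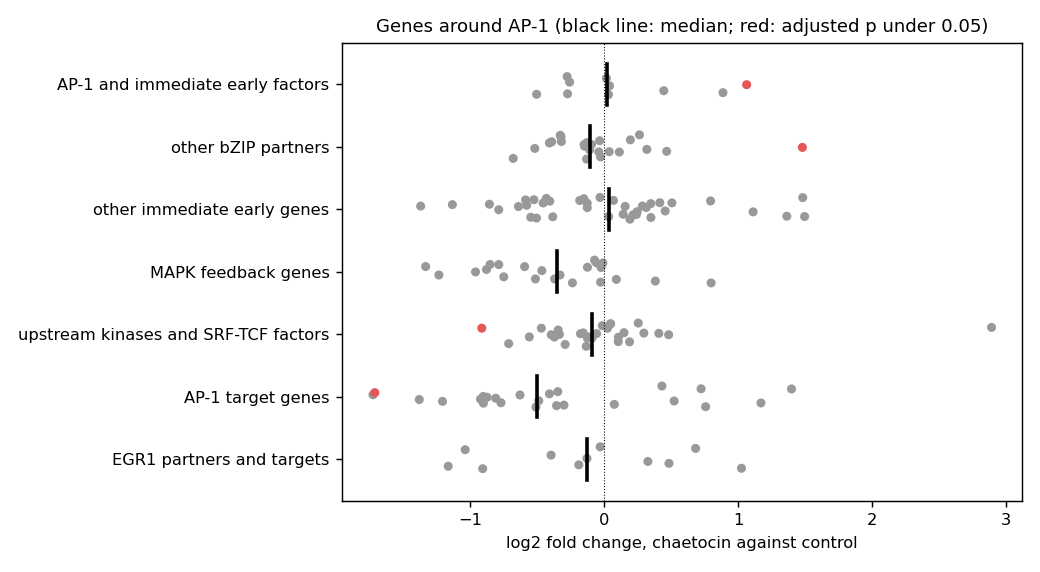
Log2 fold change of chaetocin against control for each tested gene of the members and of the 6 surrounding lists (points, spread vertically for visibility), with black lines for medians and red points for genes with an adjusted p under 0.05. The medians of MAPK feedback genes (-0.35) and AP-1 target genes (-0.50) lie lowest, and *JUND*, *MAFG*, *MRTFB* and *ITGA2* are the red points.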

How the data were processed

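Polyadenylated RNA of 4 samples (2 control, 2 chaetocin) was sequenced as 50 bp single-end reads. The authors deposited 1 table of raw counts per gene and sample, without normalization. The submitters' processing notes name cutadapt, TopHat, TopHat2, SAMtools and the build GRCh37, and the counting tool, its strand setting and the annotation release are not given in the sources used here. Groups and sample numbers were taken from the sample titles.

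Counts were tested in R 4.3.3 with edgeR 4.0.16 (filterByExpr with a minimum count of 10, TMM, robust quasi-likelihood F test, no block), with Benjamini-Hochberg adjustment over 16416 genes and a threshold of 0.05. The standard error is the absolute log2 fold change over the root of F. Symbols and exon lengths came from GENCODE v29 on GRCh38, which matched 52338 of 57905 identifiers. Promoter windows came from RefSeq. Alternatives were other size factors and filters, a fit without robust, DESeq2 1.42.0, a replicate block, leaving out each sample and, added after the data were seen, a GC correction. The scripts were tested on simulated data.

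The members and the lists were chosen with earlier results of these data known. Named genes were the 10 members, up to 4 called genes per list and direction, and otherwise the 2 largest log2 fold changes among genes whose groups did not overlap. Totals ranged from 21241984 to 32590479 counts, and the biological coefficient of variation was 16.8% with 2 residual degrees of freedom. Reads amplified in 15 cycles of PCR are not independent molecules.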

Additional observations from a re-analysis of the deposited data

How the results depend on the processing

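Of the members, *JUND* was called higher under every alternative run, with log2 fold changes between 0.92 and 1.14. The 9 others were called under some alternatives or none. Members called higher numbered 2 in place of 1 with upper-quartile factors, with no filter on low counts, with DESeq2's Wald test, with the replicate block and with the GC correction. The added member was *ATF3*, with log2 fold changes of 0.96, 0.87, 0.87, 0.89 and 0.90 in that order. With the replicate block, 1 member was called lower in place of 0. This was *JUN* (-0.50, adjusted p = 0.0454, edgeR). These member counts are to be read against the counts over all genes in the same setting, given in the next paragraph. With all 4 samples kept, signs turned for *FOS* with the replicate block (-0.043), *JUNB* with the GC correction (-0.053) and *EGR1* with no filter on low counts (-0.0042). For each of these, the cause was not tested.

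The differences between same-numbered samples correlated across genes with r = 0.123 between the groups, and with 2 samples per group this does not show that the numbers pair them. The replicate block gave 1036 genes higher and 1053 lower of 16416 tested, in place of 182 and 122. No filter on low counts gave 787 and 759 of 31692, and at least 10 counts in every sample 114 and 80 of 14486. DESeq2's Wald test gave 385 and 481 of 16412. Upper-quartile scaling gave 246 and 88 of 16416, and the GC correction 186 and 131 of 15981. Of the 6 surrounding lists, in place of 1 gene higher and 2 lower, there were 10 and 25 with no filter on low counts, 4 and 20 with DESeq2's Wald test and 12 and 32 with the replicate block. Upper-quartile factors gave 2 higher.

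With each sample left out in turn, between 215 and 1332 genes were higher and between 97 and 1673 lower, with 1 to 2 members higher, 0 to 3 members lower, 3 to 15 list genes higher and 6 to 54 list genes lower. The sample left alone in its group is assumed to vary like the other group. The log2 fold changes then ranged from -0.87 to 0.63 for *FOS*, from -0.22 to 1.69 for *FOSB*, from -0.53 to -0.062 for *FOSL1*, from -0.41 to -0.12 for *FOSL2*, from -0.55 to -0.47 for *JUN*, from -0.071 to 0.14 for *JUNB*, from 0.99 to 1.12 for *JUND*, from 0.75 to 1.01 for *ATF3*, from -0.82 to 1.12 for *EGR1* and from -1.07 to 0.24 for *IER3*. Signs turned for *FOS*, *FOSB*, *JUNB* and *EGR1* without control sample 1, and for *FOS*, *EGR1* and *IER3* without chaetocin sample 2.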
